A study of Homo sapiens with 9 samples.

Results

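H3K27ac peaks scattered inside genes are the acetylated sites of RPMI-8402 cells that lie in the body of a protein-coding gene, outside any dense cluster. Their summits can lie little more than 1 kb from a gene end. RPMI-8402 is an established line from a human T-ALL, an acute lymphoblastic leukaemia of T-lineage cells. H3K27ac is acetylation of lysine 27 of histone H3. A peak entered the set when its summit lay more than 1 kb from both ends of every RefSeq protein-coding gene and inside a gene body. Distal peaks were chained across gaps of up to 12.5 kb, and chains of 5 or more peaks were removed. Of the 9857 H3K27ac peaks on chromosomes 1 to 22, X and Y, 2430 met the rule. The other peaks comprised 3765 gene-end peaks (summit within 1 kb of a gene end), 2180 clustered distal peaks (in chains of 5 or more) and 1482 scattered intergenic peaks.

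The series holds 9 chromatin immunoprecipitation libraries (ChIP-seq) of this line. The H3K27ac peaks come from 1 of them, which has no replicate, names no clone and carries the genotype entry NKX2-1. Whether its cells were knockout or wild type is therefore unclear, and every overlap with it below is with sites of unknown genotype, the peaks in NKX2-1 itself included. The other 8 were made with antibody ab76013 against NKX2-1 (also TTF1), a homeodomain transcription factor. They come from 4 wild-type clones (WT10, WT13, WT28, WT30) and 4 clones (C12, C15, S04, S36) whose genotype entry is also NKX2-1 and which are termed knockout here because the series design does so. All share the RPMI-8402 background, no treatment is named for any of them, and each clone is represented by 1 library. P-values over these libraries therefore measure the spread between single libraries of single clones, which may in part be technical.

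H3K27ac is deposited by the acetyltransferases p300 and CBP and marks active promoters and active enhancers. Inside a gene, an acetylated site can be an enhancer of that gene, an enhancer of a neighbour, or an alternative promoter from which a shorter transcript starts. In T-cell leukaemia, dense clusters of acetylated enhancers are known for sustaining oncogenes.

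The labelled cell type was compared with its markers. Of 12 T-cell markers, 9 carried an H3K27ac peak at a gene end or in the gene (CD3D, CD3E, CD3G, CD247, CD5, LCK, TCF7, BCL11B and GATA3), and CD5, LCK and GATA3 held scattered peaks. No peak lay at any of 6 myeloid markers (CD33, CD14, MPO, CSF1R, CEBPA and LYZ). In a longer list of 22 B-cell and myeloid genes 3 had a peak, and SPI1, a myeloid and early T-lineage ETS factor counted in other lists, held 3 scattered peaks of up to 7.72-fold. Read depth is unknown for every library because the peak lists hold no read counts. A place without a peak was not called at that depth and is not shown to lack the mark. The gene table used here gives no exons, so peaks are placed by gene and distance and not as exonic, intronic or UTR.

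The strongest scattered peaks at an internal promoter are shown by sequence, because they give the reader the DNA at which acetylation inside a gene coincided with a start site other than the gene's outer ones. RefSeq (GRCh38.p14, the assembly of hg38) lists 1 or more starts for most genes. Among scattered peaks, 269 in 202 genes had the summit within 1 kb of a host-gene start that lay more than 5 kb from both gene ends. The 8 genes of highest enrichment follow, each with the 250 bases upstream of its internal start, 5′ to 3′ in the direction of transcription. Capitals mark words searched on both strands. The word for ETS factors was CCGGAA. For RUNX factors the word searched was TGTGGT. The E-box was searched as CAGCTG. The word taken for GATA factors was AGATAA. The word taken for the NKX2 family of homeodomain factors was CACTTG. The GC box, to which SP factors bind, was searched as GGGCGG. No words overlapped one another in these windows.
RHOU: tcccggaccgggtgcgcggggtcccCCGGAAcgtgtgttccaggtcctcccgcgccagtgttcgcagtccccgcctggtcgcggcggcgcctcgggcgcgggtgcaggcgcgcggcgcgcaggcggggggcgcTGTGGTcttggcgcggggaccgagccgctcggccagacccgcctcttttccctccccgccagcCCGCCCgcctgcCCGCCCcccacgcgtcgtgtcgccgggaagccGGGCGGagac
UBE2D3: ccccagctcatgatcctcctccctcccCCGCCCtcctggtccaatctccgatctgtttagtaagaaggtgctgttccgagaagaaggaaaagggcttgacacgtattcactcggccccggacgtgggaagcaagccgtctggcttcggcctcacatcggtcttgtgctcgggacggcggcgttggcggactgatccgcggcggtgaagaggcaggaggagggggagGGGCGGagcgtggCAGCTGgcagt
EPC1: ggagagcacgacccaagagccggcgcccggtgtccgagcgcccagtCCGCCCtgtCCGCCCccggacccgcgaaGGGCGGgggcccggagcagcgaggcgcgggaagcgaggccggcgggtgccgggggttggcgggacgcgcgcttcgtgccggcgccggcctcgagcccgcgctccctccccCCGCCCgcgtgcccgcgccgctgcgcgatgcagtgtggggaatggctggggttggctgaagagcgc
KANSL1: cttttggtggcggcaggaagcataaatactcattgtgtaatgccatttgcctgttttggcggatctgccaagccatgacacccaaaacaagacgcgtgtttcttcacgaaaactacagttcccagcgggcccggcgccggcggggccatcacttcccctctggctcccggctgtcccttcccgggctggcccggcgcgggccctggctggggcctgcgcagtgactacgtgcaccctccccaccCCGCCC
CCND3: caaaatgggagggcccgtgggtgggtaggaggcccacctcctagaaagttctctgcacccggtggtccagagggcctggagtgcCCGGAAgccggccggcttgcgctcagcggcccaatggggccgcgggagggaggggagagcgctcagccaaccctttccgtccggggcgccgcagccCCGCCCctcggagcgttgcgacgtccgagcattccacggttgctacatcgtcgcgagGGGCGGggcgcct
MBNL1: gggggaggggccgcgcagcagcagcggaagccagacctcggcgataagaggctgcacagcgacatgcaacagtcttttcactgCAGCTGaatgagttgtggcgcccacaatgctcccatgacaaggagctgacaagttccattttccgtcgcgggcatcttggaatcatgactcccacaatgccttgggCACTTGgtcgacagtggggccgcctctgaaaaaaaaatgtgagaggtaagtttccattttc
SRSF11: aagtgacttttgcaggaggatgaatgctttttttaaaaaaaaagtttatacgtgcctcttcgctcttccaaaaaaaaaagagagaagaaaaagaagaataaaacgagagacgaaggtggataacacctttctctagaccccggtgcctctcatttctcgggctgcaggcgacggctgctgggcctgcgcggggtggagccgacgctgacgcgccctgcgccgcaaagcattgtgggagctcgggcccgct
PSMA1: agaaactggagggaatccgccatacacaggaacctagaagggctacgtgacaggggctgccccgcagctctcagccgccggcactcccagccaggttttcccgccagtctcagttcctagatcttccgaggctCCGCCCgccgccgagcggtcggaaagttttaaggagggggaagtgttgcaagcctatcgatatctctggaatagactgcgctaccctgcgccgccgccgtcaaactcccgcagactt

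The RHOU window (chr1:228735229-228735478, plus strand) lies 90.8 kb from the 5′ end of the gene and holds 41 CpG dinucleotides, an ETS word, a RUNX word and GC boxes. RHOU encodes an atypical small GTPase, and the peak there (chr1:228734811-228737988) had 19.4-fold enrichment. The UBE2D3 window (chr4:102827552-102827801, minus strand) lies 41.3 kb into a gene for a ubiquitin-conjugating enzyme, beside a peak of 16.7-fold. The EPC1 window (chr10:32347159-32347408, minus strand) has 79.6% GC and belongs to a subunit of the NuA4 histone acetyltransferase complex, with a peak of 15.96-fold. The KANSL1 window (chr17:46194051-46194300, minus strand), of a subunit of the NSL acetyltransferase complex, holds a single GC box and lies beside a peak of the same enrichment.

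CCND3, which encodes cyclin D3, has its window at chr6:41941809-41942058 on the minus strand, 108 kb (108.227) from the 5′ end of the gene, with an ETS word and 2 GC boxes. Its peak (chr6:41939601-41941695) had 11.8-fold enrichment, and no H3K27ac summit lay within 1 kb of either end of CCND3. The same held for RHOU and EPC1, whereas UBE2D3, KANSL1, MBNL1, SRSF11 and PSMA1 had a summit within 1 kb of an outer end. Outer ends are those of the whole RefSeq gene, so an internal start can be the main promoter of a gene. Which starts were in use was not tested. The MBNL1 window (chr3:152268859-152269108, plus strand), of a splicing regulator, was the only one of the 8 with the NKX2 word. The SRSF11 window (chr1:70221130-70221379, plus strand) held none of the 6 words. The PSMA1 window (chr11:14520387-14520636, minus strand), of a proteasome subunit, lies 123 kb (123.276) from the 5′ end. These last peaks had 11.6-fold (MBNL1) and 11.3-fold (SRSF11 and PSMA1) enrichment. All 8 summits lay between 129 and 577 bp downstream of the start.

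Windows at starts near scattered peaks were rich in CpG. Over 731 such windows of 533 genes the median GC content was 67.2% and the median CpG number 22, against 58% and 11 over all 35116 listed windows. The 485 internal host-gene starts near a scattered peak had a median of 22 CpG, and all 5314 internal protein-coding starts had 8. The 4183 windows near gene-end peaks were alike in composition, with 65.2% GC and 22 CpG. The words differed from those at gene ends in one respect. CCGGAA occurred in 17.8% of windows near scattered peaks (95% Wilson interval 15.2 to 20.7), in 29.8% near gene-end peaks (28.5 to 31.2) and in 14.5% of all windows. The GC box occurred in 65.8%, 67.8% and 42.6% of these windows. TGTGGT was found in 8.34% of windows near scattered peaks, 7.82% near gene-end peaks and 10.98% of all. In the same order, AGATAA was found in 3.83%, 4.02% and 9.17%, and CAGCTG in 10.8%, 10.8% and 13.99%. For CACTTG the values were 6.57%, 5.28% and 9.50%. Intervals cover counting error only, windows of 1 gene can overlap, and a match is a description of letters in the window and no measured binding site.

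Start sites accounted for a minority of the scattered peaks. Chromosome 8 starts were not used here, which leaves 2323 scattered peaks. Of all 9468 H3K27ac peaks on the remaining chromosomes, 40.9% had the summit within 1 kb of a listed start of a protein-coding gene or lncRNA. Among scattered peaks inside genes this held for 574 of 2323, or 24.7% (95% Wilson interval 23 to 26.5). The share was 84.4% for gene-end peaks, 5.201% for clustered distal peaks and 9.94% for scattered intergenic peaks. The rule set the value for gene-end peaks and, through the distance from gene ends, lowered it in the other classes. In 444 scattered peaks (19.1%) the start was an internal one of the host gene, here more than 1 kb from both gene ends. A further 65 lay near a start of the host within 1 kb of its 5′ end, and 65 near the start of a lncRNA only. The remaining 1749 (75.3%) had no listed start within 1 kb. Starts are listed for 82.0% of protein-coding genes outside chromosome 8, so the counts near a start are lower limits. The median distance to a listed start was 7879 bp for scattered peaks inside genes, 378 bp for gene-end peaks, 16065 bp for clustered distal peaks and 19842 bp for scattered intergenic peaks.

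**Figure D1:**
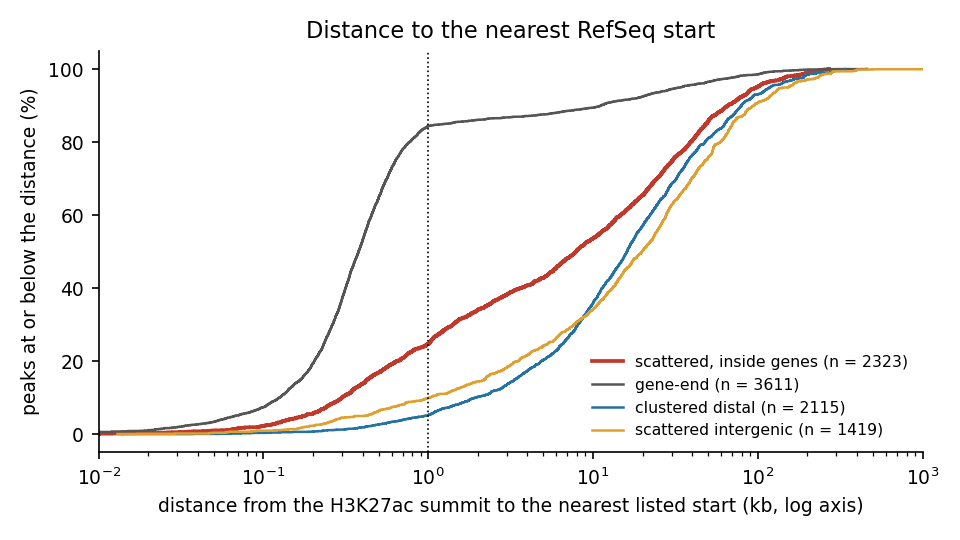
Cumulative share of H3K27ac peaks (percent, vertical axis) by distance from the summit to the nearest listed RefSeq start (kb, log axis), for 4 classes of peaks outside chromosome 8. The dotted line stands at 1 kb, where the red curve of scattered peaks inside genes is at 24.7%, between gene-end peaks (84.4%) and the 2 other distal classes, and the shortest distances are drawn at the left edge.

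Internal starts with a scattered peak included genes of T-cell and leukaemia biology. DNMT3A, a DNA methyltransferase, had an 11.1-fold peak (chr2:25251200-25252330) beside a start 90.5 kb from its 5′ end. PRKCH, a protein kinase C, had a 10.6-fold peak at a start 134 kb (134.111) from its 5′ end. MME, which encodes the surface antigen CD10, had a 10.3-fold peak at a start 55.8 kb in. IKZF1, the lymphoid factor Ikaros, had a 9.36-fold peak at a start 5.25 kb in (5.245). CDKN2C, which encodes the cell-cycle inhibitor p18, had an 8.63-fold peak at a start 7.96 kb in. None of these 5 genes had an H3K27ac summit within 1 kb of either outer end. As above, outer ends are those of the whole RefSeq gene, and which start serves as main promoter was not tested. These genes were singled out from the 202 after their values were seen. Over all 202 genes with such an internal start, 46 had a peak at an outer end.

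Scattered peaks near a listed start and those without one were close in strength. The 574 near a start had a median enrichment of 6.19-fold (interquartile range 5.45 to 7.598) and a median width of 396 bp (395.5). The 1749 without a start had 5.94-fold (5.42 to 6.92) and 341 bp. Enrichment of 10-fold or more was reached by 6.97% (5.16 to 9.35) and 4.403% (3.54 to 5.47) of them. The 65 peaks near a lncRNA start only had a median of 6.37-fold, and 8 of them (12.3%, 6.37 to 22.5) reached 10-fold.

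Scattered peaks inside genes had a smaller share of strong peaks and a smaller median width than each other class of H3K27ac peaks. Their enrichment, the authors' fold over background at the summit, ran from 3.94 to 22.3 with a median of 5.94 (interquartile range 5.45 to 7.16). The median was 6.43 for gene-end peaks, 5.95 for clustered distal peaks and 6.19 for scattered intergenic peaks. Clustered distal peaks had the same interquartile range at this rounding (5.45 to 7.16) and differed from scattered peaks inside genes mainly among the strongest peaks. Enrichment of 10-fold or more was found in 122 scattered peaks inside genes (5.02%, 4.22 to 5.96). It was found in 9.61% of gene-end, 8.26% of clustered distal and 8.57% of scattered intergenic peaks. The median width was 354 bp, against 424, 386.5 and 385 bp. These are descriptions of 1 library and carry no test. The values are stepped: the 2430 peaks took 335 distinct enrichment values, and the most common, 5.70, was shared by 207 peaks. A −log10 q of 5 or more was reached by 863 of them (35.5%).

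**Figure D2:**
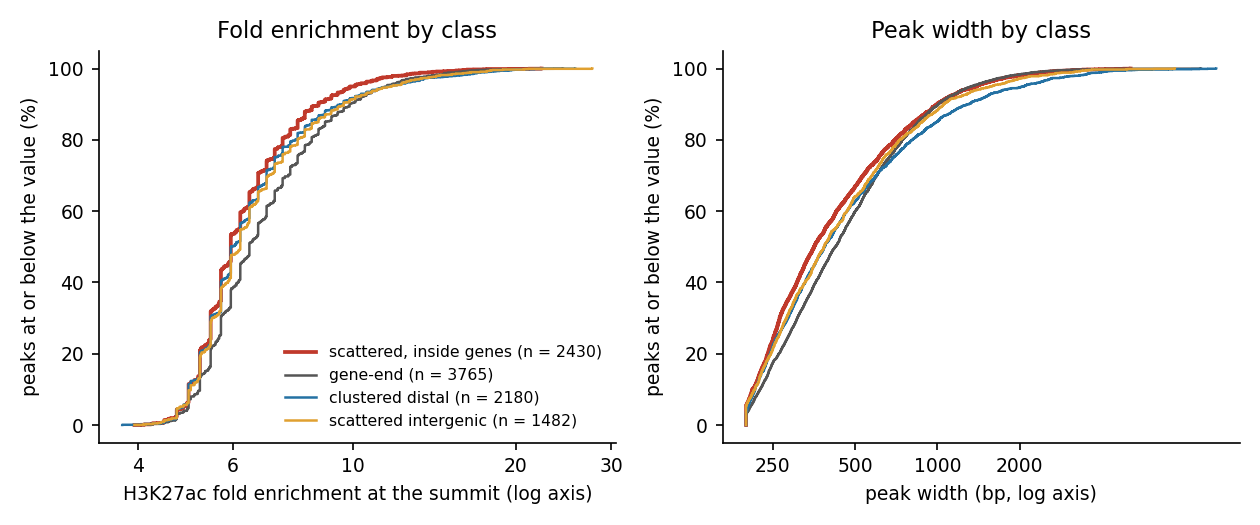
Cumulative share of peaks (percent) by fold enrichment at the summit (left, log axis) and by width in bp (right, log axis) for the 4 classes of H3K27ac peaks in the single library. The red curve, scattered peaks inside genes, has medians of 5.94-fold and 354 bp. In the left panel it runs close to that of clustered distal peaks up to the upper quartile. In the right panel it lies furthest left at the median and both quartiles.

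Members in chains of different size were alike. Among the 2430, 916 were chained to no other peak, 688 were in chains of 2, 495 in chains of 3 and 331 in chains of 4 peaks. Gene-end peaks did not enter the chains, so a member outside any chain can still lie near a gene-end peak. The median enrichment was 5.94-fold in each of these groups, and the median width 348, 365.5, 339 and 384 bp. The 190 peaks in genes that lay in chains of 5, just outside the rule, also had a median of 5.94-fold and a width of 380 bp. At the distance threshold, the nearest member lay in FBXO44 at 1001 bp from a gene end (5.09-fold) and the nearest excluded peak in SUCO at 999 bp (4.97-fold). Within 1.5 kb of a gene end lay 285 members, with a median of 6.19-fold and a median width of 396 bp. They include the strongest members of MYB (1448 bp), TOX (1196 bp) and CDKN1B (1078 bp). These genes also had an H3K27ac summit within 1 kb of an end. At the chaining threshold, a CYB561 peak was joined over a gap of 12435 bp and a PRKCH peak was left single at 12565 bp.

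The 15 strongest members lay in genes of differing function. The highest, at 22.3-fold and 4760 bp wide, lay in CXXC5 (chr5:139667420-139672179), which encodes a CXXC zinc-finger protein. Its summit was 1012 bp from a listed start, just beyond the 1 kb used here. A 21.1-fold peak lay in GATA2 (chr3:128481172-128484569), a haematopoietic stem-cell transcription factor, 10.4 kb from its 5′ end. RHOU followed at 19.4-fold. HHEX, a haematopoietic homeobox gene, had a 17.7-fold peak (chr10:92689686-92693049) and WDR1, a cofilin partner in actin turnover, another of 17.7-fold (chr4:10092370-10096490). The ZNF792 peak (17.4-fold) lay 222 bp from a lncRNA start.

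The remaining peaks of the 15 strongest ranged from 15.5-fold to 16.7-fold. They lay in UBE2D3, LSM7 (an RNA-processing ring subunit), PPP1R18, BIN2, EPC1, KANSL1, TNRC18, CAPZB (an actin-capping subunit) and HNRNPUL1 (an RNA-binding protein). Of the 15, 5 had an internal host-gene start within 1 kb (RHOU, UBE2D3, EPC1, KANSL1 and HNRNPUL1). The TNRC18 peak was the widest of the 15, at 5082 bp, and the EPC1, KANSL1 and HNRNPUL1 peaks were near 1 kb wide (1112, 1065 and 1141 bp).

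Scattered peaks fell in few genes. Of 20037 protein-coding genes, 1375 (6.86%) held 1 or more. A single peak was held by 806 genes, 2 by 302, 3 by 132 and 4 or more by 135. A peak had 1 host gene in 2372 cases and 2 overlapping hosts in 58. An H3K27ac summit lay within 1 kb of either end of 18.2% of all protein-coding genes and of 33.2% (30.7 to 35.7) of the 1375 hosts. The share was 32.0% (28.9 to 35.3) in genes with 1 scattered peak, 37.0% (29.4 to 45.4) in genes with 4 or more, and 17.1% in genes with none. Host genes were also longer, with a median of 62.0 kb against 22.5 kb for genes without a scattered peak.

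Longer genes held a scattered peak more often but at a lower density. The share of genes with a scattered peak was 1.95% below 10 kb, 5.97% from 10 to 50 kb, 10.3% from 50 to 100 kb, 14.2% from 100 to 300 kb and 15.01% above 300 kb. Per megabase of gene body the number was 5.18, 3.89, 2.43, 1.84 and 0.646 in the same bins. Among chromosomes, 17 had most scattered peaks per megabase of gene body (4.48), then 19 (3.85) and 21 (3.69), and 13 had fewest of those with any (0.39). The mean over all was 1.92 per megabase.

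Scattered peaks lay towards the 5′ side of their genes. Strand is listed for 1924 of the 2268 members in a single gene outside chromosome 8. Genes were divided into 5 equal stretches from the 5′ to the 3′ end. The shares of scattered peaks in these stretches were 31.2% (29.2 to 33.3), 21.2%, 17.7%, 15.8% and 14.1% (12.6 to 15.7), from first to last. The 1059 clustered distal peaks with a listed strand had 19.1% in the first stretch, 24.8% in the middle one and 16.4% in the last. The median distance from the 5′ end was 23.4 kb for scattered and 45.0 kb for clustered peaks. In number, 479 scattered peaks (24.9%) lay within 5 kb of the 5′ end and 663 (34.5%) lay more than 50 kb from it.

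The 10 genes with most scattered peaks held between 8 and 14 each. MICAL2, an actin-oxidising enzyme, held 14 peaks of 4.97-fold to 6.92-fold, spread over 164 kb (163.989). MSI2, an RNA-binding regulator of stem cells, held 13 over 415 kb (414.874), from 4.48-fold to 9.36-fold. VAV3, a guanine nucleotide exchange factor, held 11, all between 14.7 and 136 kb (135.826) from its 5′ end. ATP2B2, a plasma-membrane calcium pump, held 10, all 157 kb (156.572) or more from its 5′ end. LEF1, a T-cell factor of the WNT pathway, held 10 in 121 kb (121.385), the highest density of these genes at 8.24 per 100 kb. They formed 3 groups at 2.29 to 3.27, 73.4 to 75.6 and 115 to 120 kb (114.742 to 119.775) from its 5′ end. NFATC1, a calcium-dependent T-cell factor, held 10 in 3 chains over 70.2 kb.

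The other genes of this group held 8 or 9. GSE1, a subunit of HDAC corepressor complexes, had the highest median of the 10 genes (7.41-fold) and a 10.1-fold peak. MECOM, a haematopoietic zinc-finger oncogene, had its strongest peak (10.6-fold) 1.68 kb from the 5′ end. RPTOR, the raptor subunit of mTORC1, held 9 of 4.97-fold to 6.68-fold, 2 of which also lie in a gene without an assigned name. ETV6, an ETS-family repressor, held 8 in 2 chains near 105 and 210 kb (103.415 to 105.742 and 206.739 to 212.269). MICAL2, MSI2 and LEF1 had 2 peaks near a listed start each and NFATC1 had 1, whereas VAV3, ATP2B2, GSE1, MECOM, RPTOR and ETV6 had none. H3K27ac also marked an outer end of VAV3, LEF1, MECOM, RPTOR and ETV6, and of none of the other 5. Peaks of dense clusters, which the rule removes, lay in MICAL2, MSI2, VAV3, GSE1, RPTOR and ETV6 as well.

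**Figure D3:**
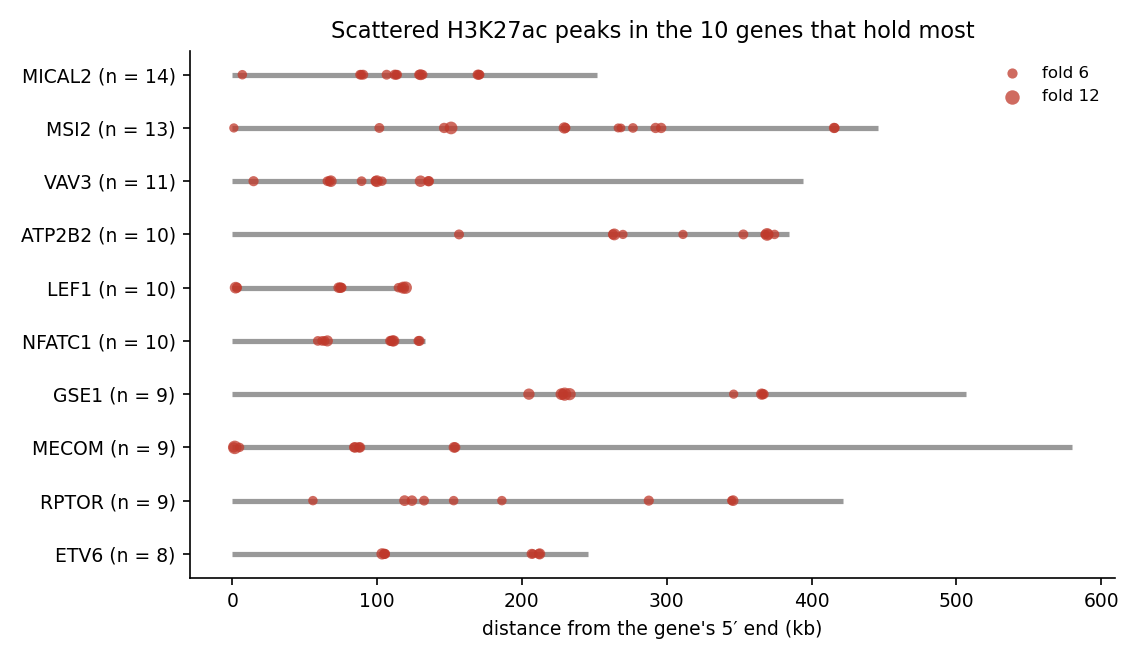
Position of each scattered H3K27ac peak in the 10 genes that hold most, as distance of the summit from the gene's 5′ end (kb). Grey bars span the gene, each red point is 1 peak and its area scales with fold enrichment. MICAL2 (14 peaks) and LEF1 (10) show separate groups of points, and the ATP2B2 points start 157 kb into the gene.

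The lists of genes described next were written with earlier results of these data known, and their shares are set beside the 6.86% of all protein-coding genes that hold a scattered peak. The ETS family and the RUNX proteins with their core-binding-factor partners had the highest shares of these lists. In the ETS family, 11 of 17 genes held a scattered peak (64.7%, 41.3 to 82.7). ETV6 held 8 and ETS1 held 4, the strongest of them 9.36-fold (chr11:128548267-128548753). FLI1 reached 8.39-fold (chr11:128694640-128695029) and ELF2 reached 7.90-fold beside an internal start. Of RUNX proteins and core-binding-factor partners, 10 of 17 held one (58.8%, 36 to 78.4). GATA2 held 4, RUNX1 a single weak peak of 4.70-fold (chr21:34991380-34991663) and RUNX2 a single peak of 5.94-fold. ERG and FLI1 are in both lists.

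T-cell identity factors had 9 of 27 genes with a scattered peak (33.3%, 18.6 to 52.2). Apart from LEF1 and NFATC1, TOX, a thymocyte HMG-box factor, had a 13.8-fold peak (chr8:59117210-59119066) and IKZF1 had 3 peaks of 6.43-fold to 9.36-fold. GATA3, a factor of the T lineage, had 1 of 5.70-fold. Of oncogenic transcription factors of T-ALL, 8 of 24 held one (33.3%, 18.0 to 53.3). HHEX led, MYB had 3 with the strongest at 14.7-fold (chr6:135181207-135184087), and LMO1, a LIM-domain oncogene, had 3 with the strongest at 10.6-fold (chr11:8261713-8263821). NKX2-1 itself held 2, of 6.92-fold (chr14:36518304-36518826) and 5.21-fold, and no NKX2-1 library had a peak on either.

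T-cell receptor signalling genes had 12 of 30 with a scattered peak (40%, 24.6 to 57.7). UBASH3B, a phosphatase that dampens receptor signalling, reached 12.8-fold (chr11:122744190-122744889). LCP2, the adaptor SLP-76, also reached 12.8-fold (chr5:170278769-170279773). LCK, the kinase that starts the receptor cascade, reached 10.2-fold (chr1:32274181-32275501). Chromatin regulators had 18 of 40 (45.0%, 30.7 to 60.2), with ARID1B, a BAF-complex subunit, at 15.5-fold (chr6:156777796-156780230), DNMT3A at 11.1-fold and CHD2, a chromatin remodeller, at 9.12-fold.

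NOTCH pathway genes had 7 of 26 (26.9%, 13.7 to 46.1). CDK6 reached 14.7-fold (chr7:92753701-92756843), TSPAN7 reached 13.3-fold and CCND3 11.8-fold, while HES1, a direct NOTCH target, had 1 peak of 5.70-fold. Cell-cycle genes had 7 of 31 (22.6%, 11.4 to 39.8), with CDK6, the inhibitor CDKN1B at 13.8-fold and E2F2 at 12.3-fold. PI3K and RAS signalling genes had 5 of 30 (16.7%, 7.34 to 33.6), with PIK3CD, RPTOR and RASSF5 reaching 8.06-fold, 6.68-fold and 5.94-fold. In 7 further lists reported here the interval included 6.86%. Thymocyte surface markers had 4 of 29 (CD5 highest, 8.92-fold), JAK-STAT genes 3 of 23 (STAT5B, 8.39-fold) and apoptosis regulators 3 of 25 (BCL2, 5.94-fold). DNA repair genes had 3 of 47, with BRCA1 highest at 7.02-fold, although 22 of the 47 had a peak at a gene end. Ribosomal protein genes had 1 of 30 (RPL7, 11.3-fold), with 26 of 30 marked at a gene end.

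The last lists bear on cell types other than T cells. Of B-cell and myeloid genes, 1 of 22 held a scattered peak, the kinase gene BLK (7.41-fold). Long neuronal genes had 2 of 28, CSMD1 and PTPRD, at 0.174 peaks per megabase. The density was 1.92 for all genes and 0.646 for genes above 300 kb, and the median length of this list was 1197 kb (1196.92). Lists differ in gene length: the median was 131 kb (130.801) for chromatin regulators, 12.7 kb for T-ALL factors, 54.1 kb for DNA repair and 24.1 kb for all genes. It was 105.9 kb for RUNX proteins and partners, 106.6 kb for T-cell identity factors and 47.9 kb for the ETS family. Of all genes of 100 to 300 kb, 14.2% held a scattered peak, against the 6.86% of all lengths. The part of length in these shares was not tested.

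**Figure D4:**
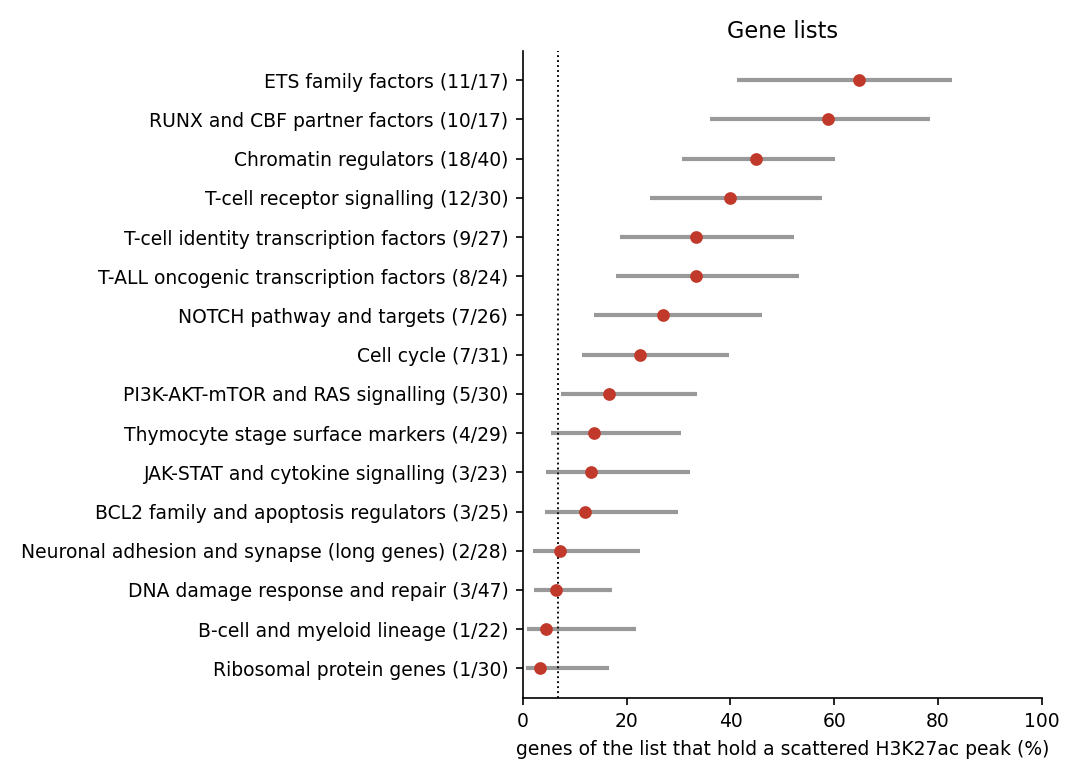
Share of the genes of each list that hold a scattered H3K27ac peak (percent, horizontal axis), with the 95% Wilson interval as a grey bar and the number of genes in brackets. The dotted line is the 6.86% of all protein-coding genes, and the ETS family (64.7%) lies furthest from it.

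Overlap with annotated miRNAs is given for scattered peaks only, with no share over all H3K27ac peaks beside it. RefSeq hairpins overlapped 5 of them outside chromosome 8: MIR4466 in ARID1B (15.5-fold), MIR4784 in MZT2A (10.6-fold), MIR7845 in KLF7 (9.85-fold), MIR7852 in VAV3 (7.90-fold) and MIR4519 in BCL7C (5.15-fold).

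The question set by the series was where NKX2-1 binds, and the NKX2-1 libraries took no part in the rule, so they give an independent readout on the same sites. Very few scattered peaks were overlapped by 1 bp or more by an NKX2-1 peak. In wild-type clones the numbers were 20 in WT10, 1 in WT13, 4 in WT28 and 4 in WT30 of 2430. In knockout clones they were 1 in C12, 2 in C15, 0 in S04 and 10 in S36. For S04, a count of 0 allows a share of up to 0.123% when taken as 3 of 2430, and of up to 0.158% by the Wilson interval. WT10 and S36 were the high library of each genotype, and the 2 groups overlapped. The same 2 libraries had most peaks over all, 1144 and 934, whereas the other 6 had between 742 and 875.

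The wild-type and knockout clones did not differ beyond their spread. The share of scattered peaks overlapped was 0.298% ± 0.355 (SD, n = 4) in wild-type and 0.134% ± 0.188 in knockout libraries. The difference of 0.165 percentage points gave p = 0.514 in a two-sided exact permutation test (adjusted p = 0.514 over 6 tests, Benjamini-Hochberg). Without WT10 it was −0.0103 points, so its direction rested on that library. Counted from the NKX2-1 side, 0.693% ± 0.667 of wild-type and 0.333% ± 0.432 of knockout peaks fell on a scattered peak (exact permutation p = 0.429, adjusted p = 0.514). Without WT10 this difference shrank from 0.36 to 0.0373 points. The difference between genotypes at scattered peaks was set against that at all other H3K27ac peaks and exceeded it by 0.0401 points (exact permutation p = 0.514, adjusted p = 0.514). The smallest p that 4 against 4 libraries allow is 0.0286.

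Within libraries, NKX2-1 calls covered a larger share of scattered peaks inside genes than of gene-end peaks, and a smaller share than of scattered intergenic peaks. Over the 8 libraries the mean share was 0.216% ± 0.277 for scattered peaks inside genes and 0.0531% ± 0.0931 for gene-end peaks. The difference of 0.163 points was positive in 7 of 8 libraries and 0 in S04 (exact sign-flip permutation p = 0.0156, adjusted p = 0.0469). The counts behind these signs were small. Scattered peaks inside genes and gene-end peaks had 1 and 1 overlapped in C12 and 10 and 10 in S36. There the sign came from the class sizes alone. In WT13 the counts were 1 and 0, and in C15 they were 2 and 0. The mean for scattered intergenic peaks was 0.439% ± 0.416, and the difference of −0.223 ± 0.191 (SD) points was negative in 7 of 8 libraries and 0 in S04 (exact permutation p = 0.0156, adjusted p = 0.0469). Against scattered intergenic peaks the counts were equal in WT13 (1 and 1) and in C15 (2 and 2). With S04 at 0, p = 0.0156 is the smallest value that this exact sign-flip permutation test can give. Both calls of the exact permutation test were lost (adjusted p = 0.0625 to 0.0938) when any library other than S04 was left out. With S04 tied, the smallest p that 7 libraries can give is 0.03125 before adjustment. Without WT10 the difference from gene-end peaks was 0.0838 points.

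Against clustered distal peaks the difference did not pass. Their mean share was 0.419% ± 0.516, and scattered peaks inside genes were lower by −0.203 ± 0.251 (SD) points, in 6 of 8 libraries (exact sign-flip permutation p = 0.0391, adjusted p = 0.0781). Peak width moved with these comparisons in part: the median was 354 bp in scattered peaks inside genes, 385 in scattered intergenic, 386.5 in clustered distal and 424 in gene-end peaks, which were the widest and the least often overlapped. The part of width in the result was not tested. The knockout clones entered these comparisons with the wild-type ones, so these shares are of calls made with the antibody in either genotype.

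**Figure D5:**
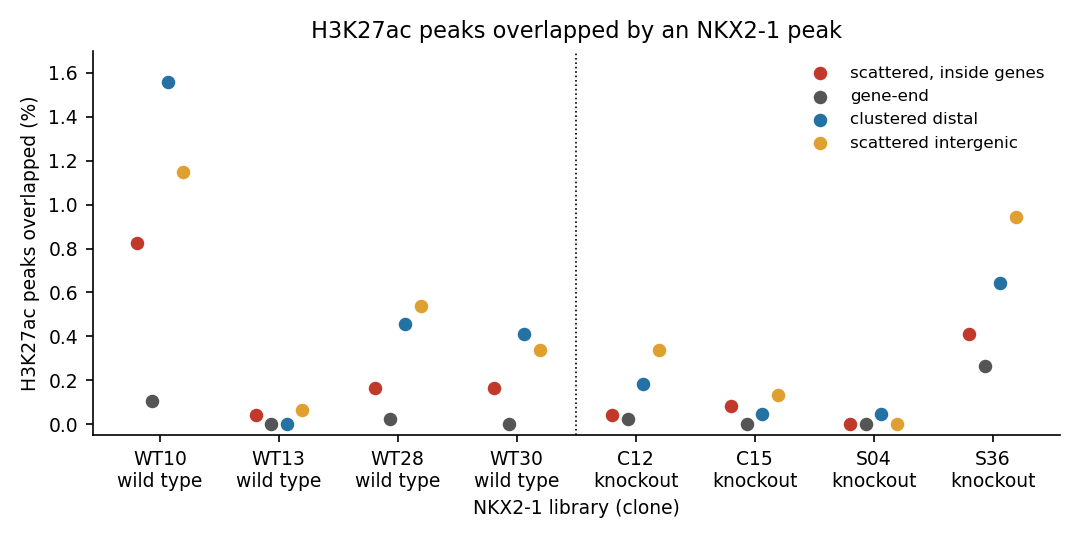
Percent of the H3K27ac peaks of each class overlapped by an NKX2-1 peak, for the 4 wild-type (left) and 4 knockout (right) libraries; each point is 1 class in 1 library. WT10 and S36 are highest in their genotype, and the grey points of gene-end peaks lie below the red points of scattered peaks inside genes in every library but S04, where both are at 0.

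By site, 28 scattered peaks (1.15%) had any NKX2-1 call, against 1.22% of all H3K27ac peaks. Over all 9857 H3K27ac peaks, 0.812% were overlapped in 1 or more wild-type libraries, and among scattered peaks 21 (0.864%, 0.566 to 1.32) were. In 1 or more knockout libraries the values were 0.487% of all and 10 scattered peaks (0.412%). The authors' combined NKX2-1 peak list touched 0.325% of all H3K27ac peaks and 10 scattered peaks (0.412%, 0.224 to 0.756). These shares are close to those of all H3K27ac peaks. Of the 28, 17 were called in wild-type libraries only, 6 in knockout only, 4 in both and 1 in the combined list alone. The shares of scattered peaks called in wild type only, knockout only and both were 0.700%, 0.247% and 0.165%. Over all H3K27ac peaks they were near these, at 0.659%, 0.335% and 0.152%.

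Sites called repeatedly in wild-type clones were rare. A scattered peak in USP20, a deubiquitinase gene, was called in all 4 wild-type libraries and in no knockout library (chr9:129863329-129863873, 8.14-fold H3K27ac enrichment). A scattered peak in CNR2, the cannabinoid receptor of immune cells, was called in WT10, WT28 and WT30 and in no knockout library (chr1:23896142-23896704, 6.71-fold). Both are in the combined list. No scattered peak was called in 3 or more knockout libraries and in no wild-type library. Over all 9857 H3K27ac peaks, 9 (0.0913%) were called in 3 or 4 wild-type libraries and in no knockout library. This is near the 0.0823% of scattered peaks, and none of the 9857 had the reverse.

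The other combined-list sites were called at most in WT10. They lay in HHEX, ST3GAL1 (chr8:133499167-133500913, 9.85-fold), PITPNM2 (chr12:123130843-123132141, 8.77-fold), C21orf58 (chr21:46320687-46321185, 7.59-fold) and AFF1 (chr4:86961650-86961989, 7.41-fold). AHI1 held 2 neighbouring scattered peaks (9.61-fold and 5.23-fold) under a single combined-list peak. The ANKS1A site (chr6:35047178-35047495, 5.45-fold) was called in none of the 8 libraries. HHEX, at 17.7-fold, was the strongest H3K27ac site of the 10, and AFF1 encodes a subunit of the super elongation complex.

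Sites called in knockout libraries only lay in UBE2D3 (the 16.7-fold peak beside the window shown above), SDHA, CDS2 and PPCDC, with 2 peaks, all in S36, and in PREX2 in C15 and S36. Some sites were called in both genotypes. PPP1R18, a phosphatase-1 regulator with a 16.2-fold scattered peak, was called in WT10, C12 and S36. ATP2B4, a calcium pump, was called in WT10, WT28 and S36, TNFRSF1A, a TNF receptor, in WT10, C15 and S36, and TPM3, a tropomyosin, in WT10, WT30 and S36. The 28 called sites had a median H3K27ac enrichment of 7.87-fold and a median width of 928 bp, and 14 of them were 1 kb wide or more, against 5.94-fold and 354 bp over all 2430. An overlap of 1 bp is reached more easily by a wide peak, and the part of width in these differences was not tested. A listed start lay within 1 kb of 4 of them (chromosome 8, with ST3GAL1, BLK and PREX2, was not used for starts), too few to set against the 24.7% of all scattered peaks. LCP2, described above, was called in WT10 and WT28, and CDK6 in WT10.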

How the data were processed

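Chromatin of the RPMI-8402 line was profiled with an NKX2-1 antibody in 8 libraries and with an H3K27ac antibody in 1. Per the submitters' processing notes, reads were handled with deepTools, MACS2, SAMtools, Bowtie2 and FastQC on build hg38. Their versions, parameters and peak-calling controls are not given in the sources used here. Each list deposited by the authors gives a ratio per peak (fold enrichment at the summit), the −log10 of its q-value, and the summit as an offset in bp. These values of the authors served to describe and rank peaks, or to filter them, inside one list. The deposited lists hold no counts, so depth and its precision are unknown. Of 9868 deposited H3K27ac peaks, 9857 lie on chromosomes 1 to 22, X and Y. The smallest deposited −log10 q was 2.10 (2.1019) in H3K27ac. The deposited list of wild-type-only regions was not used here.

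Peaks were classified with RefSeq gene positions (20037 protein-coding genes) and listed starts (35116, without chromosome 8) of GRCh38.p14, in Python 3.11.15 with pandas 2.3.3, NumPy 2.4.6 and SciPy 1.17.1. Coordinates are 1-based. Overlap required 1 bp. Libraries were grouped by their labels, 4 wild type and 4 knockout, and no read-level step was repeated. Comparisons over libraries used two-sided exact permutation tests (all assignments of 4 against 4, or all sign flips within 8 libraries) with Benjamini-Hochberg adjustment over 6 tests, at 0.05. Shares carry 95% Wilson intervals. The functions for classes, overlaps and tests were tested on simulated peaks. Words planned for 200 bases around each summit need a genome sequence, which was not used here, and were searched in RefSeq windows upstream of starts instead.

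Members and the 18 gene lists were chosen with earlier results of these data known, and 2 of the lists are not reported here. Genes named are the 15 strongest members, those under combined-list peaks, up to 3 hosts per list, the 10 hosts with most members and the sites at each threshold; other called sites, internal starts and further hosts in the lists (such as GATA3, RUNX1, RUNX2, HES1 and NKX2-1) were named after their values were seen. Alternatives changed the gene-end distance, the chaining, the q minimum, the gene set, the overlap and the libraries.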

Additional observations from a re-analysis of the deposited data

Results flagged for a closer look

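In WT10, 0.823% of the scattered H3K27ac peaks inside genes were overlapped by an NKX2-1 peak, and the next wild-type libraries, WT28 and WT30, had 0.165%. The gap of WT10 to its nearest neighbour was 0.842 of the range of the 4 wild-type libraries, which is above the limit for a single sample that stands apart (Dixon's 95% critical value for 4 samples). Chance flags about 1 in 20 groups. WT10 also had the most NKX2-1 peaks of the 8 libraries, 1144.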

How the results depend on the processing

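The number of scattered peaks inside genes moved from 2430 to 1604 when chains of 3 or more were removed, and to 1181, with a median of 7.65-fold, when H3K27ac peaks needed a −log10 q of 5. The excess over gene-end peaks kept its sign under all 20 alternatives. It no longer passed with a gene-end distance of 2 kb (0.177 points), with chains of 3 removed (0.134), with the 500 strongest NKX2-1 peaks per library (0.0503) and without WT10 and S36 together (0.0735, chosen after seeing the data). The deficit against scattered intergenic peaks also kept its sign under all 20, and did not pass under the same 4 settings (−0.134, −0.283, −0.119 and −0.154). Leaving out 1 library gave 0.0838 to 0.186 and −0.254 to −0.178 points for these comparisons. The deficit against clustered distal peaks passed when H3K27ac peaks needed a −log10 q of 5 (−0.627), when the NKX2-1 summit had to lie in the peak (−0.162) and when an NKX2-1 peak within 1 kb counted (−0.371). None of the 3 comparisons between genotypes passed under any alternative. The difference in share overlapped ran from −0.0103 (without WT10) to 0.257 with 1 library left out. The difference relative to all other H3K27ac peaks reversed with a gene-end distance of 500 bp (−0.0273), chains of 3 removed (−0.0861), summits in the peak (−0.00147), the 500 strongest peaks (−0.00616) and without WT10 and S36 (−0.00746); the cause was not tested. Each NKX2-1 share rests on 0 to 34 called peaks per class and library, and without read counts the depth behind an absent call is unknown.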
